A study of Mus musculus with 35 samples.

Results

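The day 5 response of leukemic mouse bone marrow to doxycycline was compared between animals carrying the NUP98-JARID1A fusion and animals carrying the NUP98-DDX10 fusion. For each gene the effect in a fusion was the mean at day 5 minus the mean of its untreated libraries, and the quantity described here is the NUP98-JARID1A effect minus the NUP98-DDX10 effect, called the difference of effects. It used 14 of the 35 samples of the series and 14 of its 33 RNA libraries. All values were normalized read counts, and all effects and differences are on the log2(value + 1) scale. Untreated values are listed with the library titled day 3 first.

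Each fusion had 4 untreated libraries, of which 1 is titled day 3 and 3 are titled day 5, and 3 libraries from mice given doxycycline at 4 mg/ml for 5 days. The hosts were transplanted C57BL/6 mice, the tissue was bone marrow sorted for GFP and CD45.2, and each genotype is described as regulatable expression of the fusion. The promoter that drives the fusion, the age of the mice and the number of primary leukemias are not given in the labels, nor do they say which libraries came from separate animals. The p-values below therefore measure only the spread between libraries, which may be technical. That spread was estimated over all 33 RNA libraries, those of NUP98-NSD1 and the controls included. A further 3 libraries of each fusion came from day 3 of treatment and are given for context.

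NUP98 is a nucleoporin whose N-terminal repeats are joined in leukemia to a range of partners. The JARID1A part, also called KDM5A, brings a domain that reads methylated histone H3, whereas DDX10 is a nucleolar RNA helicase needed for ribosome assembly. NUP98 fusions hold myeloid progenitors in an immature, dividing state and keep genes such as the Hoxa cluster and Cdk6 active. When such a driver is lost, the descendants of a leukemic progenitor can mature along the monocyte or the neutrophil path, and maturing cells normally leave the cycle and reduce ribosome production.

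The fusion transcripts went the way the labels say. NUP98-JARID1A stood at 3489, 3273, 3042 and 3096 in its untreated libraries and at 100, 95.4 and 60.2 at day 5, so that 2.65% of the level was left. NUP98-DDX10 stood at 13956, 14121, 12715 and 9003 untreated and at 6.59, 4.3 and 8.01 at day 5, which left 0.0506%. The eGFP reporter kept 2.77% of its level in NUP98-JARID1A and 0.03% in NUP98-DDX10, although the labels give the same GFP sort for all libraries. The more complete loss of the transcript thus lay in NUP98-DDX10, and its part in the differences below was not tested.

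Reads in genes ran from 12510513 to 15554633 in the NUP98-DDX10 libraries compared and from 14839207 to 28903870 in those of NUP98-JARID1A. The defining blood and myeloid genes Ptprc, Itgam, Spi1, Mpo, Lyz2 and Csf1r had means of at least 5059 in all 4 groups. In NUP98-JARID1A 2 libraries stood apart. Replicate 1 of day 5, the deepest, differed from its group by a chi-square per degree of freedom of 87.9 and 163, against 19.9 between the other 2. The untreated library titled day 3 differed from the other untreated ones by 31.8 to 57.8, against 14 to 23.8 among those, and was the lowest of the 4 for 20 of 33 monocyte and macrophage genes and for 4307 of all 12687 features tested. The untreated NUP98-DDX10 library titled day 3 differed from its group by 12.4 to 24.9, against 6.62 to 10.8 among the others. It was the lowest of the 4 for 27 of 42 nucleolar ribosome biogenesis genes, 24 of 44 DNA replication genes and 3795 of all features. The NUP98-JARID1A library of that title was the highest of its 4 for 28, 24 and 3923 of these. Among the 3 controls, which share the estimate of the spread, replicate 3 differed from the others by 345 and 361, against 12.3 between those. These are bulk samples, so fewer cells of a type and less RNA per cell cannot be told apart.

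The effect differed between the fusions for 2926 of 12687 features, or 23.1%, at a Benjamini-Hochberg adjusted p under 0.05 (limma). The difference was higher in NUP98-JARID1A for 1508 of them (11.9%) and lower for 1418 (11.2%), and it was at least 2-fold for 1345. Within the fusions, 5238 features (41.3%) changed in NUP98-JARID1A and 1919 (15.1%) changed in NUP98-DDX10. In 2385 of the 2926 features the effect was of larger size in NUP98-JARID1A. Most differences lay in genes that moved in NUP98-JARID1A and were not called in NUP98-DDX10: 1034 that rose and 1054 that fell. In NUP98-DDX10, 212 features fell and 117 rose without a call in NUP98-JARID1A. Another 124 were called in both fusions in opposite directions, 72 rising and 52 falling in NUP98-JARID1A. The count of lower differences was 2149 without NUP98-JARID1A day 5 replicate 1 and 944 without its replicate 3, and the count changed in NUP98-DDX10 was 993 without its day 5 replicate 3, 1245 without replicate 2 and 1273 without the untreated library titled day 3. The median difference over all features was -0.01 with an SD of 0.88. Taken library by library against the untreated mean, the day 5 effects did not overlap between the fusions for 6041 features (47.6%). The genes named below for the size of their difference were picked with this as a condition. For them a lack of overlap is thus no further support.

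**Figure D1:**
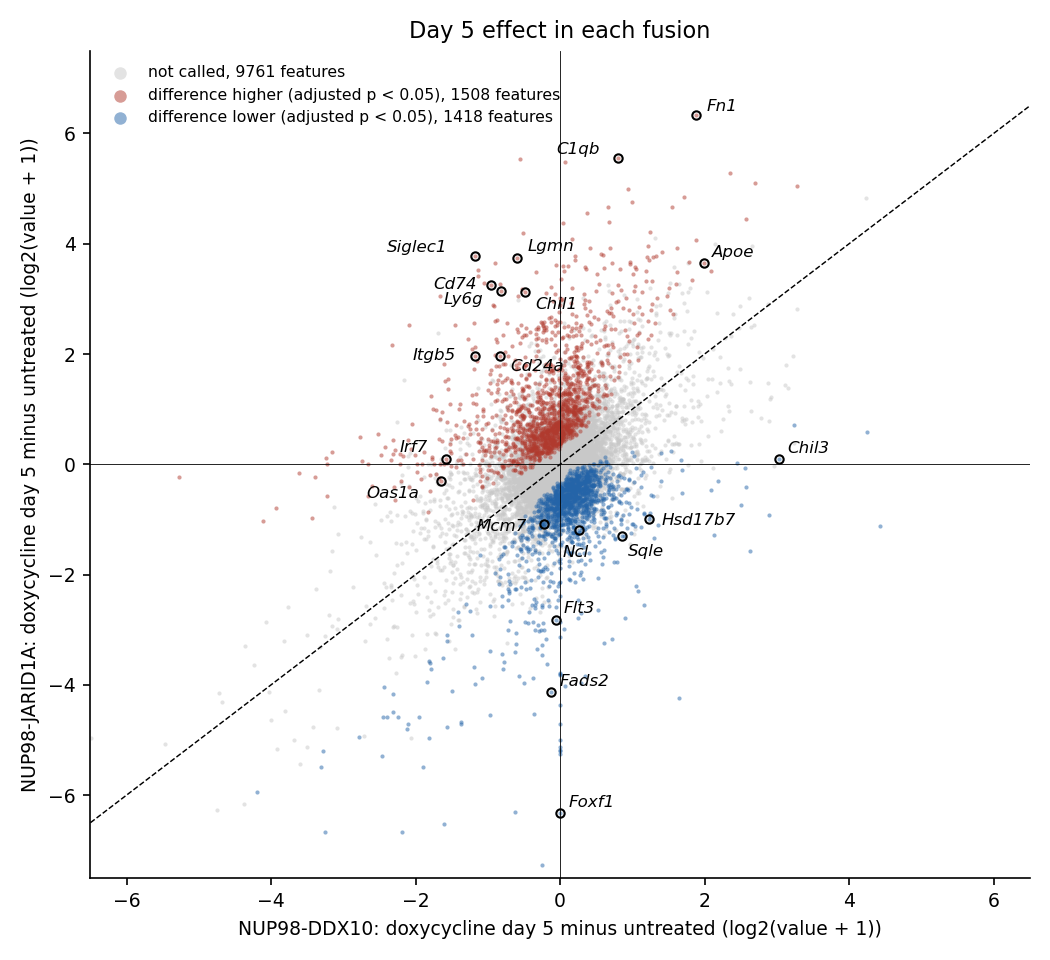
Day 5 effect in NUP98-DDX10 (horizontal axis) against that in NUP98-JARID1A (vertical axis), both on the log2(value + 1) scale, for each feature tested; 2 features lie outside the axes. Red points (1508) have a higher and blue points (1418) a lower difference at an adjusted p under 0.05, and the dashed line marks equal effects; most coloured points lie near the vertical axis, where the NUP98-DDX10 effect is small.

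A difference of effects can widen, close or reverse a gap that was there before treatment, since it equals the gap between the fusions at day 5 minus the gap in the untreated libraries. Before treatment 5288 features (41.7%) differed between the fusions, and at day 5 this was so for 6806 (53.6%). Among the 2926 features with a different effect, the gap was wider at day 5 for 2019 and narrower for 907. For 1448 of them the gap was called only at day 5, for 644 only in the untreated libraries, and for 775 in both. Siglec1, C1qb and Ly6g widened a gap, Foxf1 and Bbx narrowed one, and Lgmn, Cd74 and Cx3cr1 changed its sign.

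**Figure D2:**
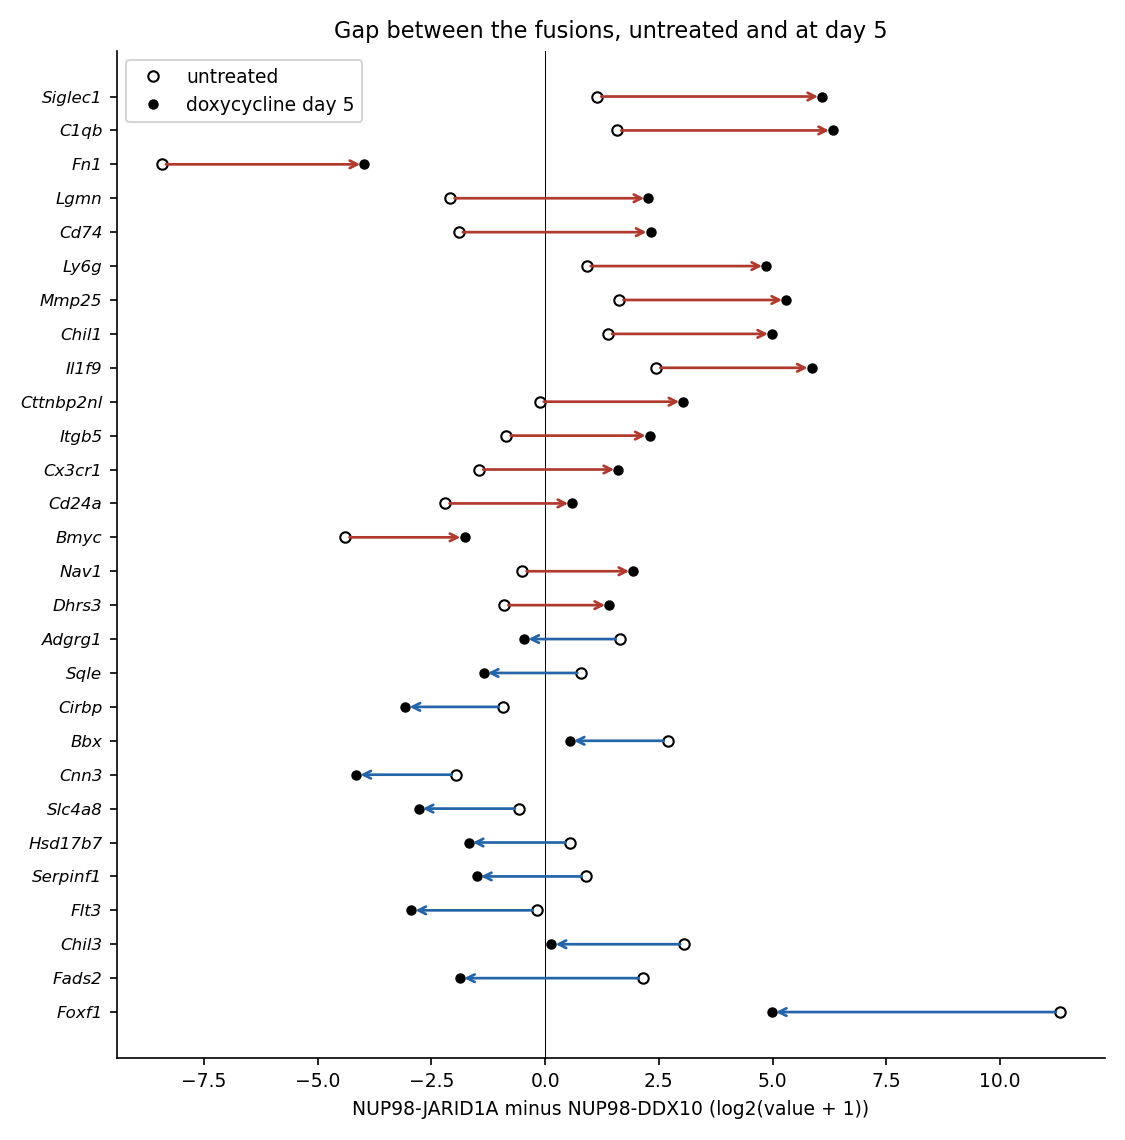
Level in NUP98-JARID1A minus level in NUP98-DDX10, log2(value + 1), for the 12 largest differences in each direction and the 6 largest of genes called in both fusions with opposite sign (Itgb5 and Hsd17b7 are in both sets). Both sets were picked among genes with a plain symbol and a mean above the median of the features tested, the 12 also for no overlap. Open circles are untreated means, filled circles day 5 means, and arrows run from untreated to day 5; Lgmn moved from -2.08 to 2.27 and Foxf1 from 11.31 to 4.98.

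Gene lists were chosen by function, and each is described by its members called and by its median beside the medians of all features, which were -0.01 for the difference, -0.02 in NUP98-JARID1A and 0 in NUP98-DDX10. List counts stand beside shares of all features of 11.9% higher and 11.2% lower for the difference. For the effects these shares were 20.1% rising and 21.2% falling in NUP98-JARID1A, and 6.49% and 8.64% in NUP98-DDX10. The lists with the largest medians were monocyte and macrophage genes (1.40) and interferon response genes (1.08) on the higher side and nucleolar ribosome biogenesis genes (-0.89) and progenitor and stem cell genes (-0.88) on the lower side. The monocyte list moved in NUP98-JARID1A, with a median effect of 1.65 there and 0.21 in NUP98-DDX10. The interferon list moved in NUP98-DDX10, with a median effect of -0.97 there and 0.09 in NUP98-JARID1A.

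**Figure D3:**
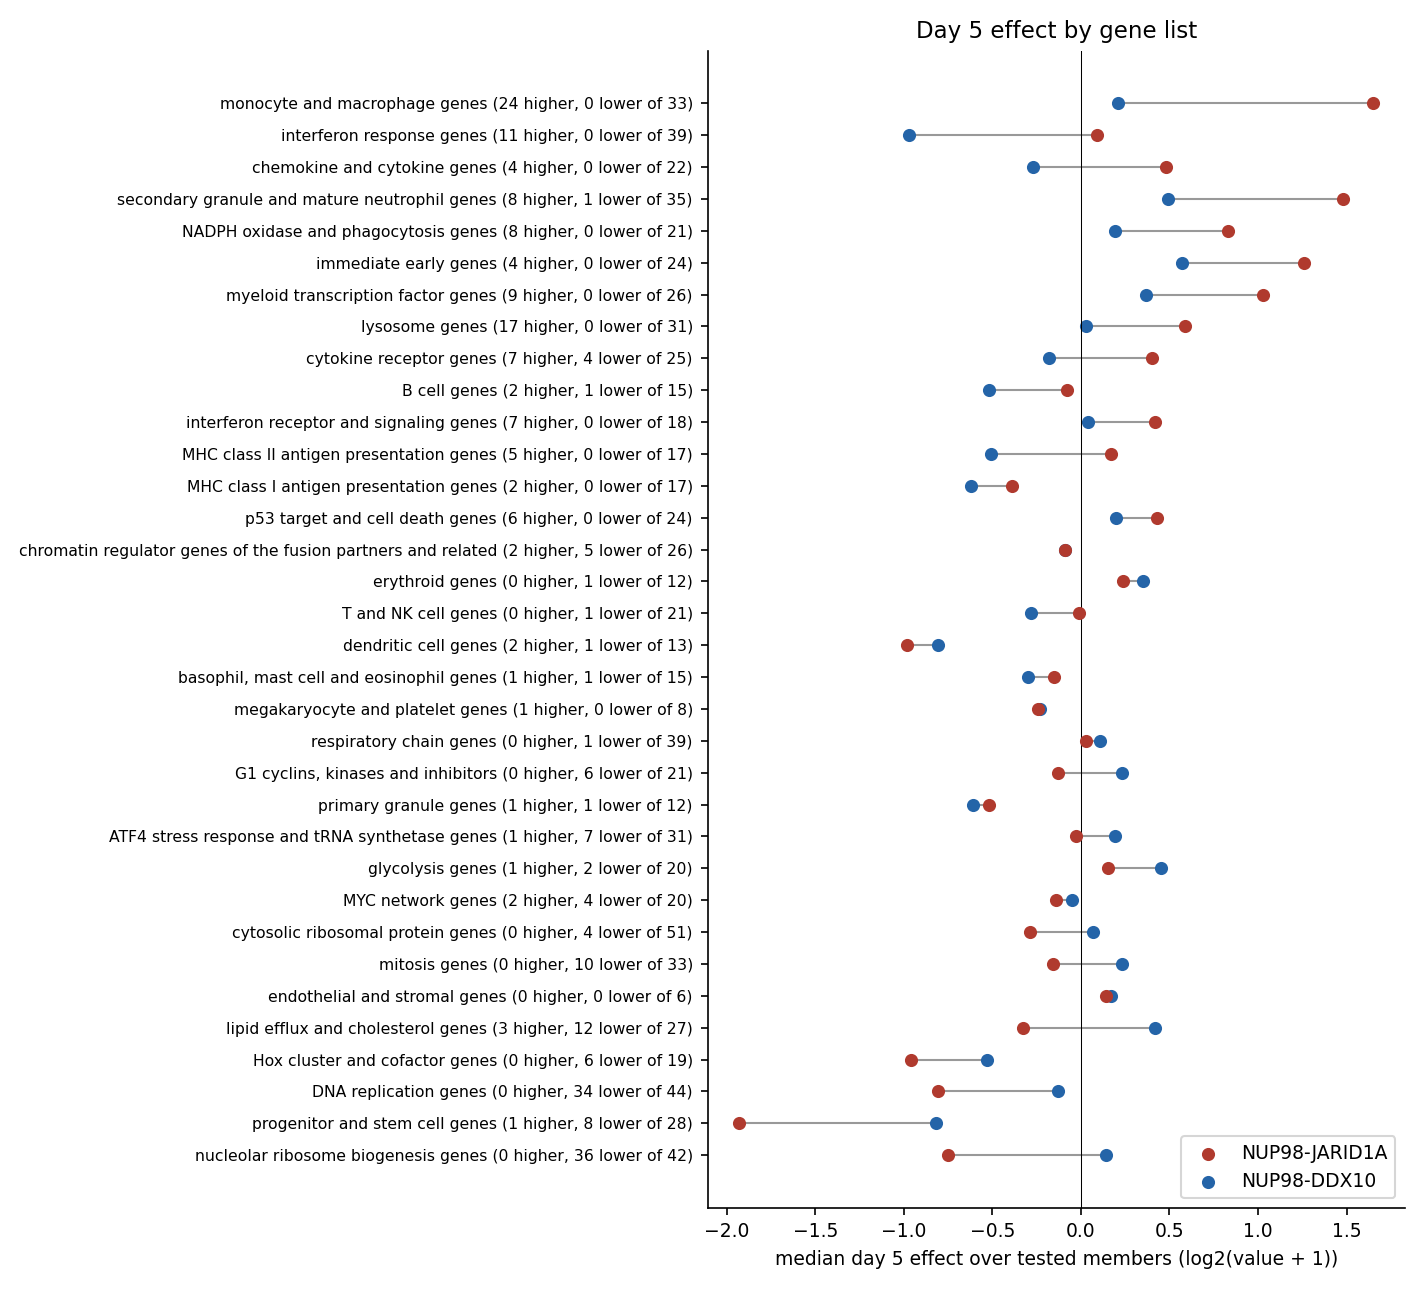
Median day 5 effect over the tested members of each gene list, log2(value + 1), in NUP98-JARID1A (red) and NUP98-DDX10 (blue), ordered by the median difference of effects. The counts in brackets are members whose difference was called higher or lower; the line between the dots is long for monocyte and macrophage genes on the red side and for interferon response genes on the blue side.

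Monocyte and macrophage genes rose in NUP98-JARID1A. The difference was higher for 24 of 33 members and lower for 0, against 11.9% and 11.2% of all features. By fusion, 26 members rose and 1 fell in NUP98-JARID1A, and 7 rose and 1 fell in NUP98-DDX10, beside shares over all features of 20.1% rising and 21.2% falling in NUP98-JARID1A and of 6.49% and 8.64% in NUP98-DDX10. Without the untreated library titled day 3 the count was 23, and without day 5 replicate 1 it was 24. The scavenger and complement genes of tissue macrophages led the list.

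C1qa, C1qb and C1qc encode the 3 chains of complement C1q, which tags debris for uptake. C1qb was 15.2, 116, 97 and 105 in untreated NUP98-JARID1A libraries and 3011, 2207 and 4663 at day 5. NUP98-DDX10 libraries stood at 20.4, 19.8, 11.6 and 43.5 untreated and 48.3, 40.9 and 28 at day 5. All 3 day 5 libraries of NUP98-JARID1A thus lay above every other library, and the difference was 4.75 ± 0.94 (SE; limma adjusted p = 0.000652). The other chains had differences of 5.42 (C1qa) and 6.09 (C1qc). Siglec1, a sialic acid receptor of macrophages, was 28.3, 217, 150 and 376 untreated and 1128, 1824 and 3252 at day 5 in NUP98-JARID1A. The values in NUP98-DDX10 were 73.5, 79.1, 42.7 and 58.7 untreated and 25.3, 29 and 26 at day 5. Here too the groups of day 5 did not overlap, and the difference was 4.95 ± 0.77 (SE; limma adjusted p = 4.85e-05), or 4.2 without the untreated library titled day 3.

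Lgmn, which encodes the lysosomal protease legumain, was higher in NUP98-DDX10 before treatment and higher in NUP98-JARID1A after it. The NUP98-JARID1A values were 92, 504, 288 and 532 untreated and 3885, 3255 and 4738 at day 5. The NUP98-DDX10 values were 1286, 1215, 1075 and 1371 untreated and 741, 956 and 757 at day 5. The groups did not overlap at either time, and the difference was 4.35 ± 0.57 (SE; limma adjusted p = 5.79e-06). Cx3cr1, the fractalkine receptor of resident monocytes, went from 693, 2120, 1340 and 1948 to 7966, 7846 and 8405 in NUP98-JARID1A and from 4762, 3206, 3648 and 3842 to 2663, 2805 and 2447 in NUP98-DDX10. It too changed the sign of its gap.

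Fn1, which encodes the matrix protein fibronectin, rose in NUP98-JARID1A and yet stayed lower there than in NUP98-DDX10. It was 13.1, 64.1, 36.5 and 53.2 untreated and 2499, 2497 and 4286 at day 5 in NUP98-JARID1A. NUP98-DDX10 gave values of 13672, 15073, 8168 and 15369 untreated and 46866, 45452 and 48256 at day 5. All NUP98-DDX10 libraries, untreated ones included, lay above all NUP98-JARID1A libraries. The difference was 4.45 ± 1.01 (SE; limma adjusted p = 0.00224), while the NUP98-DDX10 effect alone was 1.89 ± 0.71 (SE) and was not called (limma adjusted p = 0.0734). That SE rests on the spread within all 10 groups of the fit. The day 5 libraries of NUP98-DDX10 all lay above its untreated ones.

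Receptors and regulators of the same lineage moved the same way. Csf1r, the receptor for the macrophage growth factor, had a difference of 1.60 ± 0.25 (SE; limma adjusted p = 4.46e-05), Axl, a receptor for dying cells, 2.79 ± 0.43 (adjusted p = 4.20e-05), and the chemokine gene Ccl2 3.73 ± 0.61 (adjusted p = 9.56e-05). Among 26 myeloid transcription factor genes the difference was higher for 9 (34.6%, beside 11.9% of all features) and lower for 0.

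Klf4, a monocyte regulator, showed a gap that narrowed: it was 46.5, 361, 206 and 364 untreated in NUP98-JARID1A and 1553, 1856 and 2142 at day 5. In NUP98-DDX10 it was already 2919, 1765, 1697 and 2326 untreated and was 2892, 3328 and 3028 at day 5. Irf8, another monocyte regulator, had a difference of 0.91 ± 0.20 (SE; limma adjusted p = 0.00215) and was lower in every NUP98-JARID1A library than in any NUP98-DDX10 library. Irf4 rose in NUP98-JARID1A by 0.99 and changed by -1.39 in NUP98-DDX10, both called.

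Lysosome and phagocytosis genes followed. Of 31 lysosome genes, 17 had a higher difference (54.8%, beside 11.9% of all features) and 0 a lower one. Their median effect was 0.59 in NUP98-JARID1A and 0.03 in NUP98-DDX10. Psap, the precursor of sphingolipid activators, went from 26679, 52736, 41546 and 53187 to 121112, 154807 and 176043 in NUP98-JARID1A, and from 85312, 74103, 68434 and 85472 to 73375, 76153 and 63235 in NUP98-DDX10. The difference for Ctsh, a cathepsin, was 1.31 ± 0.14 (SE; limma adjusted p = 3.08e-07). Of 21 NADPH oxidase and phagocytosis genes, 8 had a higher difference (38.1%, beside 11.9% of all features) and 0 a lower one. The count of higher members was 14 without NUP98-JARID1A day 5 replicate 1. Among the 8 were Cybb, the catalytic oxidase subunit, at 1.09, and Msr1, a scavenger receptor, at 1.89. Msr1 rose in both fusions, by 4.46 in NUP98-JARID1A and by 2.57 in NUP98-DDX10.

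**Figure D4:**
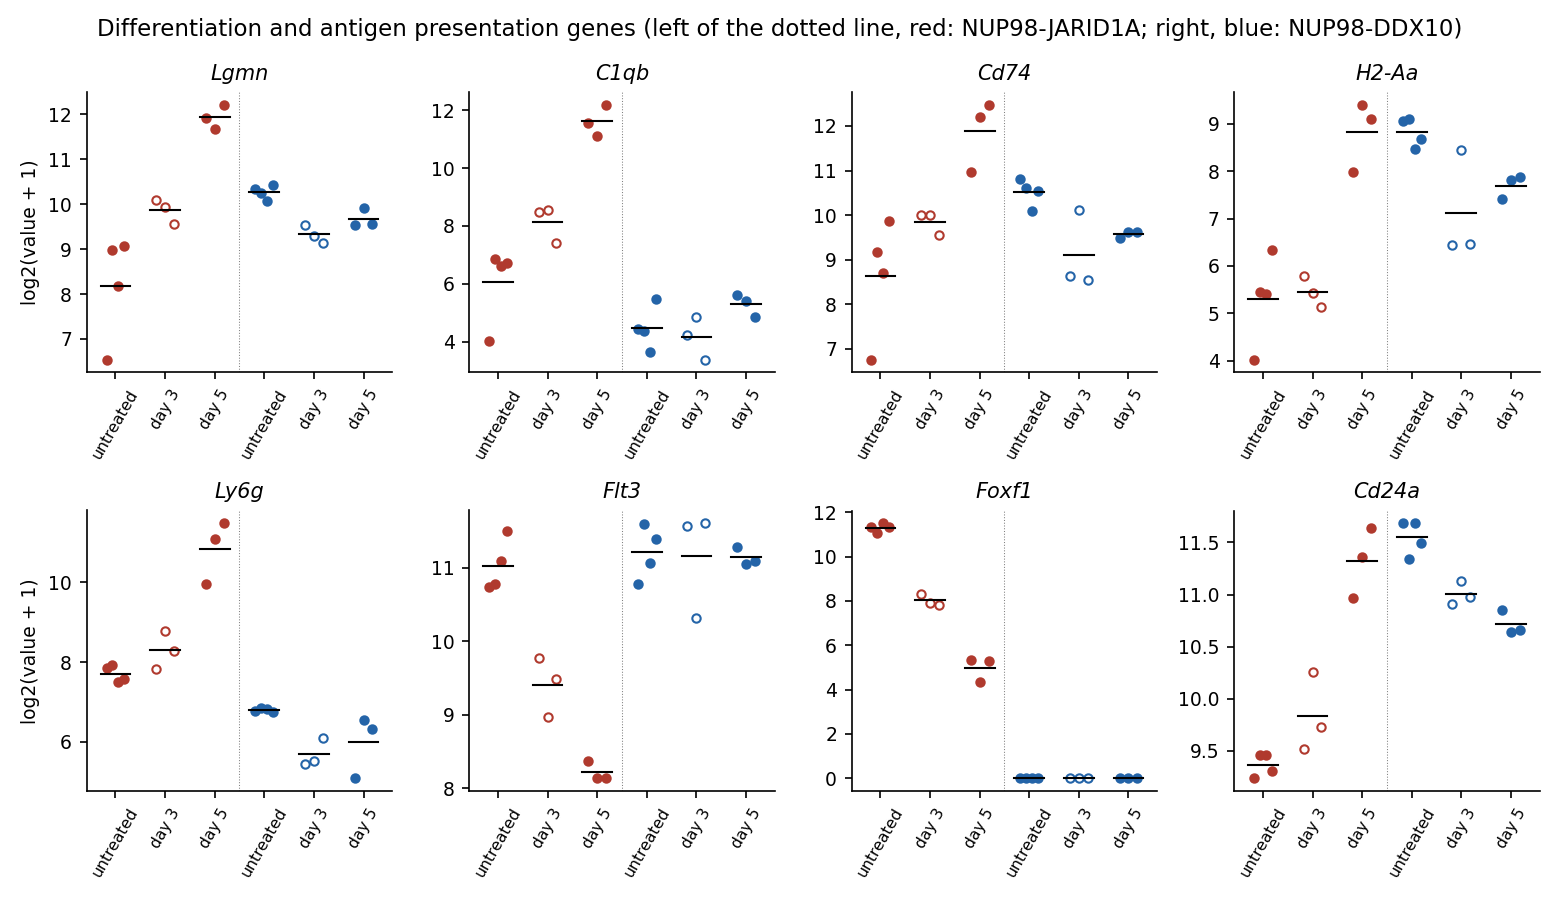
Level of 8 genes in each library, log2(value + 1), by fusion and treatment; points are libraries (4 untreated, 3 at day 3, 3 at day 5), black lines are means, and open points are day 3. C1qb and Ly6g at day 5 in NUP98-JARID1A sit above every other library, Flt3 is low in the treated NUP98-JARID1A libraries, and Foxf1 is at 0 in every NUP98-DDX10 library.

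Genes of the secondary granules and of mature neutrophils rose in NUP98-JARID1A as well. In that fusion 22 of 35 members rose and 0 fell, and in NUP98-DDX10 3 rose and 0 fell, but the difference was called higher for 8 and lower for 1. This is 25.7% of the list, near the 23.1% of all features. Before treatment 27 members were already higher in NUP98-JARID1A and 1 lower, with a median gap of 1.81. The count of higher differences was 5 without the untreated NUP98-JARID1A library titled day 3, 3 without NUP98-DDX10 day 5 replicate 1 and 17 when only the 14 libraries were fitted. Ly6g, the surface marker of mouse neutrophils, was 230, 241, 179 and 190 untreated and 999, 2182 and 2869 at day 5 in NUP98-JARID1A. NUP98-DDX10 libraries stood at 108, 115, 112 and 106 untreated and 32.9, 92.5 and 79.1 at day 5. The 3 day 5 libraries of NUP98-JARID1A lay above all others, with replicate 1 the lowest of the 3, and the difference was 3.95 ± 1.01 (SE; limma adjusted p = 0.00565).

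Ngp, a neutrophil granule protein gene, reached 152973, 334064 and 438584 at day 5 in NUP98-JARID1A from 33888, 52953, 50922 and 56566, and the NUP98-DDX10 values were 17047, 18754, 17504 and 19806 untreated and 10459, 23150 and 14855 at day 5. The granule gene Ltf, which encodes lactoferrin, had a difference of 2.78 ± 0.80 (SE; limma adjusted p = 0.0133), a call lost without NUP98-DDX10 day 5 replicate 1. Mmp25 and Chil1, both made by neutrophils, had differences of 3.67 and 3.60. The cytokine gene Il1f9 had a difference of 3.42 ± 1.11 (SE; limma adjusted p = 0.0258), whose parts were 1.82 in NUP98-JARID1A and -1.60 in NUP98-DDX10, neither of them called. The call was lost without NUP98-DDX10 day 5 replicate 1 and without replicate 2 or 3 of NUP98-JARID1A.

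Chil3 went the other way. This chitinase-like gene, made by monocytes and neutrophils, was 1710, 4790, 2418 and 5631 in untreated NUP98-DDX10 libraries and 21340, 27846 and 31303 at day 5. In NUP98-JARID1A it was already 35760, 29203, 31007 and 16871 untreated and was 42152, 21057 and 27882 at day 5. The day 5 libraries of the fusions overlapped, and the difference of -2.93 ± 0.96 (SE; limma adjusted p = 0.0271) closed an untreated gap of 3.06. The call was lost without the untreated library titled day 3 of either fusion, without day 5 replicate 2 or 3 of NUP98-JARID1A and without day 5 replicate 3 of NUP98-DDX10.

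Antigen presentation through MHC class II joins 2 transmembrane chains, the invariant chain Cd74 that escorts them, and the H2-DM complex that loads the peptide, all under the coactivator Ciita. The promoters carry short boxes read by RFX, CREB-type and NF-Y factors. H2-Aa and H2-Eb1, called chain genes of the class II molecule itself, are shown as entered in the RefSeq promoter table for the 150 bases before the annotated start (build GRCm38.p6). Capitals mark matches, on either strand, to the Y box (ATTGG), the X box core (CCTAGCAAC) and the CRE core (TGACG), the last of which matches on both strands with overlap in H2-Aa.
H2-Aa: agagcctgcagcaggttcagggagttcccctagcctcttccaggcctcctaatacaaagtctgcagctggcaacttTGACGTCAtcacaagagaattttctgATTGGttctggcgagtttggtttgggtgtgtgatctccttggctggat
H2-Eb1: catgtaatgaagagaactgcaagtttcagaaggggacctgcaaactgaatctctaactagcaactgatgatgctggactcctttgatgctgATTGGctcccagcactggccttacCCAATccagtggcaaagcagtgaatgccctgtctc
The H2-Aa stretch is chr17:34287824-34287973, minus strand, and the H2-Eb1 stretch is chr17:34305717-34305866, plus strand. Of the 17 list members tested, 13 had a promoter entry, and within 250 bases before the start the Y box was in 12 of them, against 33.8% of 32851 promoters. The CRE core was in 2 (17.8% of all) and the X box core, with no mismatch allowed, in 1 (0.694% of all). The members with the Y box include the regulator genes Rfx5, Rfxank, Nfya and Nfyc, and Nfyc also held the CRE core. A gene with several entries counted if any entry matched, whereas the shares are over single promoters. Of the called members, H2-Aa, H2-Eb1 and H2-DMa had an entry, and all 3 held the Y box, in H2-DMa at bases -198 to -194 from the start.

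The difference was higher for 5 of 17 class II members (H2-Aa, Cd74, H2-Eb1, H2-Ab1 and H2-DMa) and lower for 0, and the list's median difference was 0.41. The 5 are 29.4% of the list, beside 11.9% of all features. In NUP98-JARID1A 4 members rose and 3 fell (41.2% called, beside 41.3% of all features). In NUP98-DDX10 2 fell and 0 rose (11.8% called, beside 15.1%). Between the fusions, 0 members were higher and 9 lower in NUP98-JARID1A before treatment (52.9% called, beside 41.7% of all features). At day 5 only 1 was higher there and 4 were lower (29.4% called, beside 53.6%). H2-Aa was 15.2, 42.4, 41.7 and 80.3 untreated and 253, 677 and 553 at day 5 in NUP98-JARID1A. The values in NUP98-DDX10 were 530, 552, 351 and 411 untreated and 169, 223 and 234 at day 5. The untreated NUP98-DDX10 libraries lay above all untreated NUP98-JARID1A libraries, and at day 5 the order had turned. The difference was 4.66 ± 0.97 (SE; limma adjusted p = 0.00105).

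Cd74 followed the same course, from 107, 573, 416 and 937 to 2004, 4725 and 5700 in NUP98-JARID1A and from 1807, 1572, 1098 and 1487 to 715, 781 and 782 in NUP98-DDX10. H2-Eb1 was lower, at 4.04, 13.5, 9.39 and 12.6 untreated and 45, 145 and 135 at day 5 in NUP98-JARID1A, and at 177, 162, 78.6 and 132 and 64.8, 65.6 and 91.1 in NUP98-DDX10. Its day 5 libraries overlapped between the fusions, and the difference was 4.10 ± 0.99 (SE; limma adjusted p = 0.0037). H2-Ab1 had 2.79 ± 0.92 (SE; limma adjusted p = 0.0283) and H2-DMa 1.22 ± 0.43 (limma adjusted p = 0.0406). The latter pair lost their calls in several fits, and the list count was 3 without the untreated NUP98-JARID1A library titled day 3, without either of day 5 replicates 2 and 3 of NUP98-JARID1A, or without NUP98-DDX10 day 5 replicate 1 or 3.

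The coactivator Ciita was low, at 0, 3.61, 1.04 and 0 untreated and 1.82, 15.1 and 15.6 at day 5 in NUP98-JARID1A, and at 12.3, 11.6, 10.7 and 8.52 untreated and 2.2, 6.45 and 1 at day 5 in NUP98-DDX10. Its difference of 4.06 ± 1.66 (SE) was not called (limma adjusted p = 0.077). The remaining members did not pass the test: H2-Eb2 (1.23), H2-DMb2 (0.46), H2-DMb1 (0.04), H2-Oa (0.03) and H2-Ob (-0.71) among the chains, and Rfx5 (0.06), Rfxank (0.41), Rfxap (-0.10), Nfya (0.11), Nfyb (-0.53) and Nfyc (-0.12) among the DNA-binding subunits. H2-Ob, a chain typical of B cells, fell in both fusions. Class II genes are also made by B cells and dendritic cells: among 15 B cell genes 2 were higher and 1 lower, and their summed level was 1753 to 2404 untreated and 3547 to 4624 at day 5 in NUP98-JARID1A, against 4584 to 5272 and 2918 to 3491 in NUP98-DDX10. Cd24a, a member of that list, alone reached 1995, 2623 and 3187 at day 5. Among 13 dendritic cell genes 2 were higher and 1 lower. The called shares were 20% of the B cell list and 23.1% of the dendritic cell list, beside 23.1% of all features. With single libraries left out, both lists came down to 1 higher and 0 lower. Their part in the class II result was not tested.

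Of 17 MHC class I genes, 2 had a higher difference, H2-T23 (1.34 ± 0.28, SE) and H2-T22 (1.56 ± 0.51), and 0 a lower one. This is 11.8% of the list, beside 11.9% of all features. H2-T22 lost its call without day 5 replicate 1 or 2 or untreated day 5 replicate 3 of NUP98-JARID1A, and without day 5 replicate 3 or untreated day 5 replicate 1 of NUP98-DDX10. Both are non-classical class I genes. Of the list, 7 members fell and 2 rose in NUP98-JARID1A, and 10 fell and 0 rose in NUP98-DDX10, with median effects of -0.39 and -0.62.

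Type I interferon signals through Ifnar1 and Ifnar2 to a complex that holds Stat2 and Irf9 and binds the interferon-stimulated response element in front of antiviral genes. Below are 3 called response genes whose promoter entry holds an element-like pair (GAAA, any 2 bases and GAAA again, on either strand, in capitals), 150 bases before the annotated start, build GRCm38.p6.
Oas3: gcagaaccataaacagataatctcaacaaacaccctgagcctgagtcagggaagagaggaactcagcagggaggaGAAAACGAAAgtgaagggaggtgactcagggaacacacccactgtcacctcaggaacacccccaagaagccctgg
Oas1a: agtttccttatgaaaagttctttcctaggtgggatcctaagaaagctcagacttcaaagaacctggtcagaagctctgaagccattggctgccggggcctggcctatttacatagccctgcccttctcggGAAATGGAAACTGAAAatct
Ifit1: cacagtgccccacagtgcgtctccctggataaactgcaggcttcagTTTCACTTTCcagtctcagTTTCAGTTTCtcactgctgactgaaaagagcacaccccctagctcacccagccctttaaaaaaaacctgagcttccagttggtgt
The Oas3 stretch is chr5:120777660-120777809, minus strand, the Oas1a stretch chr5:120907526-120907675, minus strand, and the Ifit1 stretch chr19:34640739-34640888, plus strand. Ifit1 holds 2 separate pairs, and Oas1a holds 2 that overlap. Of 39 members tested, 27 had a promoter entry and 12 of these held the pair within 250 bases before the start, against 2.98% of 32851 promoters. It was in 3 of the 7 called members with an entry. The motif TTCNNNGAA, as in gamma-interferon sites, was in 6 of 27, against 7.02% of all.

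Interferon response genes fell in NUP98-DDX10 at day 5, with a median effect of -0.97, against 0.09 in NUP98-JARID1A. In NUP98-DDX10 23 of 39 members fell and 0 rose, and in NUP98-JARID1A 2 fell (Eif2ak2 and Ifit2) and 0 rose. Of all features, 8.64% fell in NUP98-DDX10 and 21.2% in NUP98-JARID1A. The difference was higher for 11 members (28.2%) and lower for 0, beside 11.9% and 11.2% of all features, and it was above 0 for 37 of 39. Among them were Rtp4, Ifit1, Ifi27l2a, Oas3, Irf7, Oas1a, Ddx58, Irf9, Ly6e and Cmpk2. This count rested on few libraries: it was 23 with only the 14 libraries in the fit, 18 without NUP98-JARID1A day 5 replicate 1, 7 without replicate 2 and 5 without replicate 3, and 7 without NUP98-DDX10 day 5 replicate 2 or 3.

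Irf7, the factor that amplifies the response, was 860, 627, 691 and 826 in untreated NUP98-DDX10 libraries, 286, 345 and 245 at day 3 and 215, 305 and 232 at day 5. In NUP98-JARID1A it was 1045, 964, 936 and 1190 untreated, 394, 574 and 441 at day 3 and 689, 1195 and 1634 at day 5. The day 5 libraries of NUP98-DDX10 all lay below its untreated ones, whereas those of NUP98-JARID1A lay on both sides, with replicate 1 the lowest. The difference was 1.68 ± 0.46 (SE; limma adjusted p = 0.00941), from 0.10 in NUP98-JARID1A and -1.58 in NUP98-DDX10. At day 3 all 3 libraries of both fusions lay below their untreated libraries, and the difference of day 3 effects was 0.21 (limma adjusted p = 0.86).

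Other antiviral genes gave values of the same kind. Oas3, which makes the second messenger of RNase L, was 427, 294, 347 and 393 untreated and 121, 158 and 123 at day 5 in NUP98-DDX10, and 928, 852, 882 and 1056 untreated and 698, 1483 and 2102 at day 5 in NUP98-JARID1A. Ifit1, which binds foreign RNA caps, was 38.8, 26.7, 22.3 and 32.2 untreated and 5.49, 7.53 and 4.01 at day 5 in NUP98-DDX10. In NUP98-JARID1A its values were 115, 103, 42.8 and 108 untreated, 12.8, 35.3 and 42.6 at day 3 and 94.2, 89.4 and 114 at day 5. Rtp4 had the largest difference of the list, 2.65 ± 0.79 (SE; limma adjusted p = 0.0167), with 13.2, 28 and 17 at day 5 in NUP98-DDX10 from 111, 122, 108 and 89.9. Rtp4 and Irf7 kept their calls in every alternative, whereas Ifit1 and Cmpk2 each lost theirs without any of 11 single libraries, Oas1a without any of 4, and Oas3 without NUP98-JARID1A day 5 replicate 3. For Oas3, Ifit1 and Rtp4 the day 5 libraries of NUP98-DDX10 all lay below its untreated ones. Among the signal components, Irf9 had 1.27 ± 0.28 (SE; limma adjusted p = 0.00159), while Stat2 at 0.44 was not called (limma adjusted p = 0.2).

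Several members with large estimates did not pass the test: Oasl2 at 2.05 ± 0.78 (SE; limma adjusted p = 0.0559), Rsad2 at 1.90 ± 0.72 (adjusted p = 0.0561) and Usp18 at 1.86 ± 0.69 (adjusted p = 0.0529). Isg15 (1.08), Gbp2 (1.58), Ifit3 (1.54) and Oas2 (1.37) were not called either. Mx1, an antiviral GTPase gene, had a difference of 0.51 and Isg20 of 0.03, and the lowest values of the list were -0.21 for Eif2ak2 and -0.13 for Ifit2. Of 18 receptor and signaling genes, 7 had a higher difference (38.9%, beside 11.9% of all features) and 0 a lower one. The 7 were Tlr9 (1.52), Ifngr2 (1.04), Ifnar2 (0.78), Ifnar1 (0.74), Myd88 (0.72), Irf2 (0.59) and Ifngr1 (0.40). The count was 11 without NUP98-JARID1A day 5 replicate 1. Of these, all but Ifnar2 rose in NUP98-JARID1A, and Ifnar2 changed by -0.47 in NUP98-DDX10, a called fall.

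**Figure D5:**
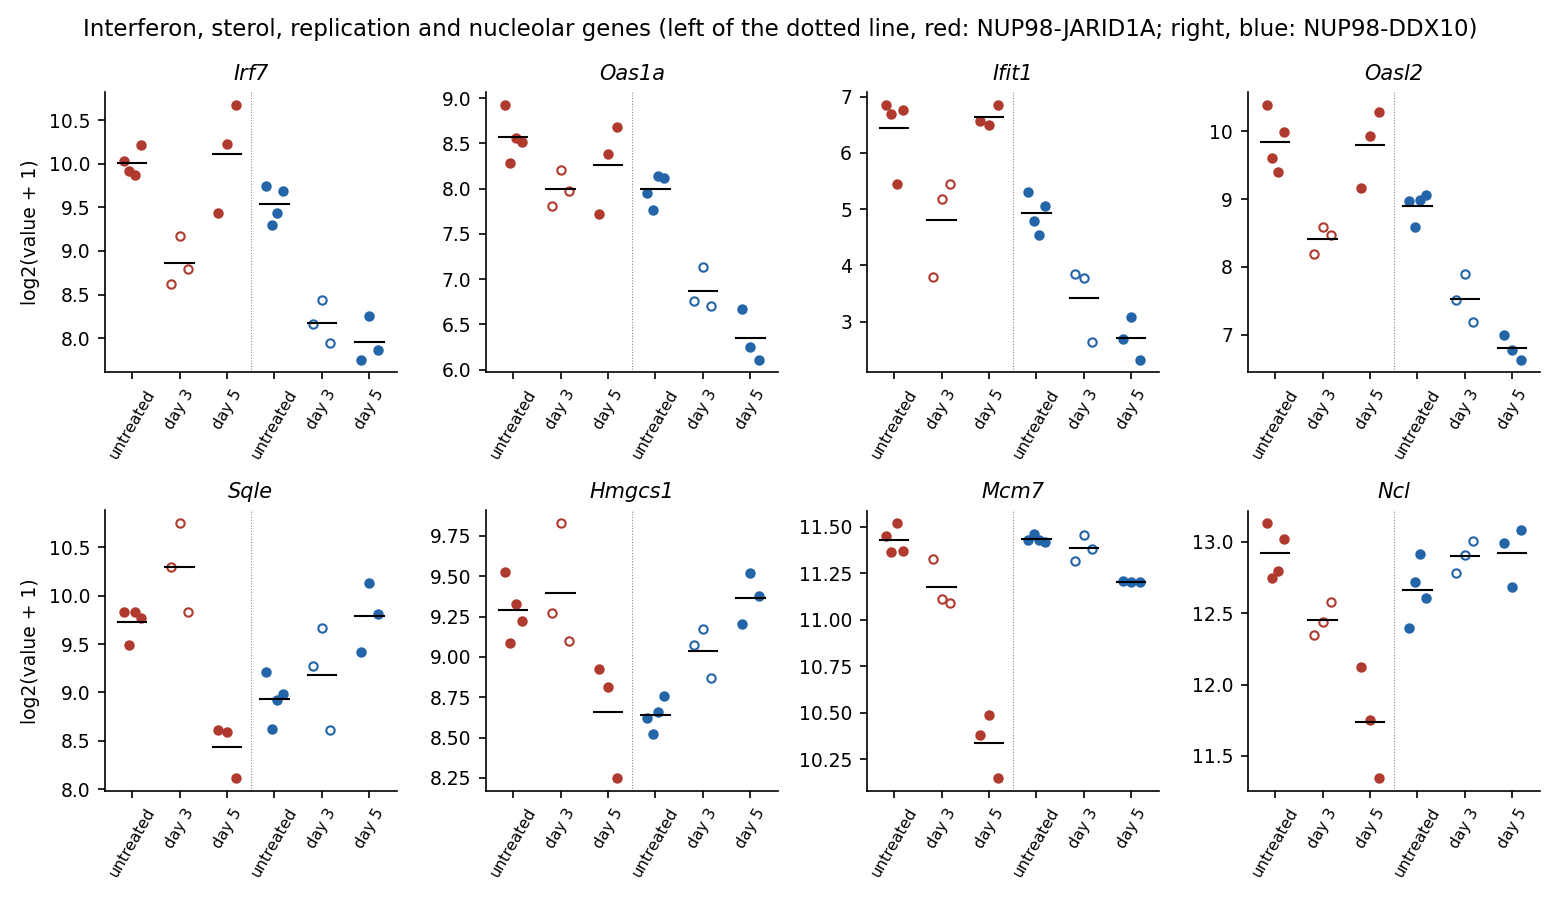
Level of 8 genes in each library, log2(value + 1), by fusion and treatment; points are libraries, black lines are means, and open points are day 3. Irf7, Oas1a, Ifit1 and Oasl2 lie below the untreated libraries of their fusion at day 3 in both fusions and at day 5 in every NUP98-DDX10 library; Sqle and Hmgcs1 fall in NUP98-JARID1A and rise in NUP98-DDX10; Mcm7 and Ncl are lowest in NUP98-JARID1A at day 5.

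Cholesterol synthesis genes fell in NUP98-JARID1A, and some of them rose in NUP98-DDX10. The pathway turns acetyl units into sterols through enzymes that include Hmgcs1, Idi1, Fdps, Fdft1, Sqle, Lss, Cyp51 and Dhcr7, and is driven by SREBP factors when cell sterol is low. Of 10 such enzymes, counted apart after their values were seen, 9 fell in NUP98-JARID1A and 4 rose in NUP98-DDX10. The difference was lower for 9 of the 10, with a range over the 10 from -2.14 to -0.64. In the whole list of 27 lipid efflux and cholesterol genes, 3 were higher and 12 lower (55.6% called, beside 23.1% of all features).

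Sqle, the squalene epoxidase gene, was 910, 718, 910 and 871 untreated and 390, 384 and 276 at day 5 in NUP98-JARID1A. NUP98-DDX10 gave values of 592, 392, 483 and 505 untreated and 681, 1120 and 898 at day 5. The untreated order of the fusions was thus turned at day 5, without overlap at either time, and the difference was -2.14 ± 0.32 (SE; limma adjusted p = 3.59e-05). Lss, which closes the sterol rings, went from 201, 172, 232 and 184 to 93.6, 110 and 75.8 in NUP98-JARID1A and from 144, 101, 99 and 125 to 175, 270 and 192 in NUP98-DDX10. Hmgcs1 had -1.35 ± 0.25 (SE; limma adjusted p = 0.000318), Idi1 -2.10 ± 0.41 (adjusted p = 0.000525) and Cyp51 -1.77 ± 0.33 (adjusted p = 0.000388), while Dhcr7 at -0.64 narrowly missed the threshold (adjusted p = 0.0534).

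The Hmgcs1 stretch of 150 bases before the annotated start (chr13:119690201-119690350, plus strand, build GRCm38.p6) is shown because it holds the only match to a sterol regulatory element-like motif (TCACNCCAC, either strand, in capitals) among the 16 list members with a promoter entry, against 1.05% of 32851 promoters.
Hmgcs1: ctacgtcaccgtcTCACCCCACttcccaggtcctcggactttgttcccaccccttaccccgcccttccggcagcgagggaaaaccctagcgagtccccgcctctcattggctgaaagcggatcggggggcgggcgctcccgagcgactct
Insig1, the sterol sensor's anchor, changed by -0.97 ± 0.21 (SE) in NUP98-JARID1A and by 0.62 ± 0.21 in NUP98-DDX10, both called. The factor genes Srebf1 (-0.33) and Srebf2 (-0.47) were not called. Outside the list, Hsd17b7, another sterol enzyme gene, was 456, 353, 450 and 382 untreated and 256, 211 and 157 at day 5 in NUP98-JARID1A, and 292, 260, 279 and 289 untreated and 514, 815 and 671 at day 5 in NUP98-DDX10. At day 3 Sqle was 1256, 1719 and 913 in NUP98-JARID1A, all above the untreated range, and its difference of day 3 effects was 0.31 (limma adjusted p = 0.659).

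A fatty acid desaturase gene fell in NUP98-JARID1A as well. Fads2, the delta-6 desaturase, was 708, 778, 892 and 1496 untreated, 542, 706 and 533 at day 3 and 60.2, 60.3 and 37.9 at day 5. In NUP98-DDX10 it was 218, 209, 208 and 198 untreated and 162, 231 and 186 at day 5. Its day 5 level in NUP98-JARID1A lay below all other values, and the difference was -4.02 ± 0.42 (SE; limma adjusted p = 2.67e-07). Scd2, another desaturase gene, had -1.18 ± 0.27 (limma adjusted p = 0.00237), and Scd1 at -2.28 was not called (limma adjusted p = 0.101). The lipid handling genes of macrophages had higher differences: 2.65 for the uptake receptor Cd36, 2.40 for the efflux pump Abca1 and 1.67 for Apoe, which rose in both fusions.

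Nucleolar ribosome biogenesis genes fell in NUP98-JARID1A and were near their untreated level in NUP98-DDX10. The difference was lower for 36 of 42 members and higher for 0, against 11.2% and 11.9% of all features, and it was below 0 for all 42. In NUP98-JARID1A 39 fell, and in NUP98-DDX10 1 rose and 0 fell. Without the untreated NUP98-JARID1A library titled day 3 the count was 33, and without that of NUP98-DDX10 it was 31. It ranged from 24 to 37 over all alternatives. The partner of the other fusion, Ddx10, is a member and had a difference of -0.75 ± 0.19 (SE; limma adjusted p = 0.0049), with 415, 455, 487 and 449 untreated and 547, 475 and 517 at day 5 in NUP98-DDX10. Reads of the endogenous gene and of the construct may be shared.

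Ncl, which encodes nucleolin, was 8960, 6861, 7110 and 8307 untreated, 5209, 5546 and 6105 at day 3 and 4458, 3442 and 2599 at day 5 in NUP98-JARID1A. NUP98-DDX10 libraries stood at 5378, 6738, 7733 and 6242 untreated and 8156, 6581 and 8674 at day 5. Every day 5 library of NUP98-JARID1A lay below every other library, and the difference was -1.44 ± 0.19 (SE; limma adjusted p = 8.28e-06). Nolc1, a chaperone of small nucleolar particles, was 3027, 2400, 2354 and 3046 untreated and 1341, 1153 and 1047 at day 5 in NUP98-JARID1A, and 3011, 3077, 3212 and 3254 untreated and 3033, 2930 and 3085 at day 5 in NUP98-DDX10. The largest differences were -1.72 for Nop58, a core of box C/D particles, and -1.69 for Wdr12, which acts in large subunit assembly. The smallest was -0.05 for Bysl.

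Of 51 cytosolic ribosomal protein genes 4 had a lower difference and 0 a higher one, beside shares of 11.2% and 11.9% of all features. The count of lower genes was 11 without NUP98-JARID1A day 5 replicate 1, and 2 without its replicate 3, without the untreated library titled day 3 of either fusion or without NUP98-DDX10 day 5 replicate 3. Of 20 MYC network genes 4 were lower and 2 higher (30% called, beside 23.1% of all features). The count of higher ones was 5 without NUP98-JARID1A day 5 replicate 1. Myc, which drives ribosome production, was 3429, 3315, 3909 and 4388 untreated, 4355, 3923 and 4539 at day 3 and 1590, 1185 and 1276 at day 5 in NUP98-JARID1A. The values in NUP98-DDX10 were 4270, 3365, 3306 and 3446, 4151, 3164 and 3058 and 2366, 2321 and 2075 at these times. Myc fell in both fusions at day 5 and more so in NUP98-JARID1A, with a difference of -0.81 ± 0.19 (SE; limma adjusted p = 0.00334). Its target Odc1, the entry enzyme of polyamine synthesis, had -1.51 ± 0.35 (adjusted p = 0.00293). The E box CACGTG, which is its own reverse complement, was within 250 bases before the start in 1 of 37 nucleolar members with an entry, against 6.02% of 32851 promoters. Bmyc, a relative of Myc, is among the genes with opposite effects below.

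DNA replication genes fell together in NUP98-JARID1A. The difference was lower for 34 of 44 members (77.3%) and higher for 0, beside 11.2% and 11.9% of all features. It was below 0 for all 44. In NUP98-JARID1A 41 fell (93.2%, beside 21.2% of all features), and in NUP98-DDX10 6 fell (13.6%, beside 8.64%) and 0 rose. The median effects were -0.81 and -0.13. The count was 29 without the untreated library titled day 3 of either fusion and 38 without NUP98-JARID1A day 5 replicate 1. All 6 subunits of the MCM helicase, counted apart after their values were seen, were among the 34, with differences from -0.89 to -0.54.

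Mcm7 was 2798, 2635, 2933 and 2648 untreated, 2565, 2207 and 2181 at day 3 and 1331, 1435 and 1133 at day 5 in NUP98-JARID1A. NUP98-DDX10 gave values of 2753, 2813, 2757 and 2736 untreated and 2361, 2358 and 2356 at day 5. The day 5 libraries of NUP98-JARID1A lay below all others, and the difference was -0.86 ± 0.12 (SE; limma adjusted p = 1.91e-05). Other members were Mcm6 (-0.89), Pole, the leading strand polymerase (-0.75), Lig1, the ligase (-0.74), Tyms, thymidylate synthase (-0.71), and Uhrf1, which copies DNA methylation (-0.64). Members not called included Rrm2 (-0.34), Pola2 (-0.20) and Rfc2 (-0.10).

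Mitosis genes differed less. The difference was lower for 10 of 33 (30.3%, beside 11.2% of all features) and higher for 0. In NUP98-JARID1A only 3 fell (9.09%, beside 21.2% of all features), and in NUP98-DDX10 7 rose (21.2%, beside 6.49%). The count of lower differences was 18 without NUP98-JARID1A day 5 replicate 1, 2 without its replicate 3 and 6 without day 5 replicate 1 or 3 or untreated day 5 replicate 3 of NUP98-DDX10, or without untreated day 5 replicate 1 of NUP98-JARID1A. Cdk1, the mitotic kinase, had a difference of -0.72 ± 0.15 (SE; limma adjusted p = 0.00109), falling by 0.31 in NUP98-JARID1A and rising by 0.41 in NUP98-DDX10.

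Among 21 genes of the G1 phase 6 were lower (28.6%, beside 11.2% of all features) and 0 higher. Cdk6, a known target of NUP98 fusions, was 16734, 16737, 16050 and 16562 untreated and 4926, 4029 and 3230 at day 5 in NUP98-JARID1A. In NUP98-DDX10 it was 15389, 14648, 12661 and 12973 untreated and 8687, 7274 and 7445 at day 5. Cdk6 fell in both fusions, with no overlap between treated and untreated libraries of either, and the difference was -1.21 ± 0.33 (SE; limma adjusted p = 0.01). Ccnd2, a cyclin that pairs with Cdk6, changed in opposite directions, from 2503, 2961, 2878 and 3965 to 2255, 2041 and 1485 in NUP98-JARID1A and from 1348, 2078, 1512 and 1510 to 2647, 2999 and 2777 in NUP98-DDX10. The difference for Cdk4 was -0.56, and that for Cdkn2c, an inhibitor of both kinases, was -1.19.

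Progenitor genes fell in both fusions. Of 28 members, 17 fell in NUP98-JARID1A and 12 in NUP98-DDX10, beside 21.2% and 8.64% of all features. The difference was lower for 8 and higher for 1 (32.1% called, beside 23.1% of all features). By edgeR the count of lower members was 4, and the count of higher ones was 3 without NUP98-JARID1A day 5 replicate 1. Flt3, a growth factor receptor of early progenitors, was 1713, 1760, 2185 and 2897 untreated, 870, 501 and 716 at day 3 and 328, 280 and 281 at day 5 in NUP98-JARID1A. NUP98-DDX10 libraries stood at 1760, 3093, 2143 and 2700 untreated and 2504, 2128 and 2194 at day 5. The untreated libraries of the fusions overlapped, those of day 5 did not, and the difference was -2.76 ± 0.56 (SE; limma adjusted p = 0.000806). The adhesion receptor Adgrg1 fell in both, by 3.94 and by 1.84 on the log2 scale, and Kit had a difference of -1.54. The exception was Gfi1b, an erythroid and platelet regulator, at 39.8, 38.4, 31.1 and 22.7 untreated and 8.78, 3.23 and 6.01 at day 5 in NUP98-DDX10, and at 0, 0.903, 2.09 and 0.967 and 6.08, 7.03 and 8.91 in NUP98-JARID1A.

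Some of the largest falls in NUP98-JARID1A were of genes with low or no reads in the NUP98-DDX10 libraries. Foxf1, a forkhead factor of mesoderm, was 2570, 2157, 2896 and 2555 in untreated NUP98-JARID1A libraries, 320, 242 and 224 at day 3 and 39.5, 19.1 and 37.9 at day 5. It was at 0 reads in all 10 NUP98-DDX10 libraries. Its difference of -6.32 ± 0.57 (SE; limma adjusted p = 2.16e-08) equals the NUP98-JARID1A effect. For the difference edgeR gave an adjusted p of 1 and DESeq2 an adjusted p of 0.000863, while the fall in NUP98-JARID1A itself had a limma adjusted p of 2.61e-12. Nkx2-3, a homeobox gene, was likewise at 0 in NUP98-DDX10 and went from 1000, 903, 1190 and 1068 to 38.3, 22.1 and 36.8 in NUP98-JARID1A. Mn1, a leukemia oncogene, went from 841, 761, 1120 and 1405 to 12.2, 5.02 and 11.1 in NUP98-JARID1A and was 4.08, 4.65, 2.91 and 2.84 untreated and at 0 at day 5 in NUP98-DDX10. The difference was not called by edgeR for Nkx2-3, and by neither edgeR nor DESeq2 for Mn1. Ikzf2, a lymphoid zinc finger factor, fell from 611, 420, 510 and 373 to 41.3, 36.2 and 36.8 in NUP98-JARID1A. Klrb1c, an NK cell receptor, fell there from 656, 811, 925 and 938 to 17, 5.02 and 5.57. In the NUP98-DDX10 libraries compared, the highest value was 1.16 for Ikzf2 and 10.5 for Klrb1c. The difference for Ikzf2 was called by neither edgeR nor DESeq2. The receptor gene Il7r went from 97.1, 106, 86.6 and 211 to 9.12, 3.01 and 2.23 in NUP98-JARID1A and from 19.4, 15.1, 19.4 and 15.1 to 14.3, 6.45 and 6.01 in NUP98-DDX10.

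Hoxa genes are classical targets of NUP98 fusions. Of 19 Hox cluster and cofactor genes, 10 fell and 2 rose in NUP98-JARID1A, 9 fell and 2 rose in NUP98-DDX10, and the difference was lower for 6 (31.6%) and higher for 0, beside 11.2% and 11.9% of all features. The count was 3 without NUP98-JARID1A day 5 replicate 2. Hoxa7 was 543, 660, 744 and 693 untreated and 65, 78.4 and 68 at day 5 in NUP98-JARID1A. The values in NUP98-DDX10 were 851, 680, 605 and 607 untreated and 279, 245 and 173 at day 5. The untreated libraries overlapped, the day 5 libraries did not, and the difference was -1.63 ± 0.32 (SE; limma adjusted p = 0.00056). Hoxa2 (-2.62), Hoxa3 (-2.16), Hoxa4 (-1.76), Hoxa6 (-2.35) and the cofactor Pbx3 (-0.68) were the other members called. Hoxa3 lost its call without any of 7 single libraries.

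From the 124 features called in both fusions with opposite signs, genes with a plain symbol and a mean above the median of the features tested were taken. The 6 largest differences among these were those of Itgb5, Cd24a, Bmyc, Nav1, Dhrs3 and Hsd17b7. Irf4, described above, had a larger difference (2.39) than Dhrs3 and Hsd17b7 but was not picked under these filters. Itgb5, an integrin subunit that takes part in uptake of dying cells, was 339, 423, 489 and 432 untreated, 760, 694 and 609 at day 3 and 1418, 1556 and 1968 at day 5 in NUP98-JARID1A. NUP98-DDX10 gave values of 799, 770, 796 and 657, 505, 435 and 481 and 345, 328 and 323 at these times. Untreated, NUP98-JARID1A was the lower fusion, and on both days of treatment it was the higher, with no overlap at any time, and the difference of 3.15 ± 0.21 (SE) had a limma adjusted p of 3.69e-11. Cd24a, a glycoprotein of immature and neutrophil cells, rose from 602, 704, 702 and 630 to 1995, 2623 and 3187 in NUP98-JARID1A and fell from 3290, 2597, 3287 and 2885 to 1844, 1595 and 1620 in NUP98-DDX10. Bmyc rose by 1.64 in NUP98-JARID1A and changed by -0.98, also called, in NUP98-DDX10, where its level remained higher: 885, 760 and 653 against 151, 289 and 250 at day 5. The differences for Nav1, a neuron navigator gene, and Dhrs3, a retinal reductase, were 2.44 ± 0.38 and 2.31 ± 0.31 (SE).

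The remaining genes among the 12 lowest named for size, picked under filters of symbol, mean and no overlap, were Serpinf1, Slc4a8, Cnn3, Bbx and Cirbp. Bbx, a DNA-binding HMG-box gene, was 4126, 3674, 3678 and 3744 untreated, 1214, 1123 and 1185 at day 3 and 1134, 933 and 860 at day 5 in NUP98-JARID1A, so that day 3 already held nearly the whole fall. In NUP98-DDX10 it was 611, 643, 571 and 514 untreated and 681, 650 and 669 at day 5. Cirbp, the cold-inducible RNA-binding protein gene, went down in NUP98-JARID1A, from 271, 280, 349 and 232 to 148, 129 and 113, and up in NUP98-DDX10, from 494, 552, 494 and 584 to 1212, 969 and 1103. Slc4a8, a bicarbonate transporter gene, had -2.20 ± 0.30, Serpinf1 -2.39 ± 0.49, and Cnn3, which binds actin, -2.19 ± 0.56 (SE), the last from falls in both fusions. On the higher side Cttnbp2nl, at 3.16 ± 0.46 (SE), completes the 12.

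Among stress and death genes 6 of 24 p53 target and cell death genes were higher (25%, beside 11.9% of all features) and 0 lower. Bcl2l11, which encodes the death protein BIM, was 541, 725, 600 and 672 untreated and 1993, 1874 and 2006 at day 5 in NUP98-JARID1A. NUP98-DDX10 libraries stood at 941, 907, 842 and 900 untreated and 1030, 1093 and 1059 at day 5. All NUP98-JARID1A day 5 libraries lay above all others, with a difference of 1.39 ± 0.17 (SE; limma adjusted p = 1.63e-06). Of 31 genes of the ATF4 response and tRNA synthetases 7 were lower and 1 higher (25.8%, beside 23.1% of all features), among the lower ones Phgdh, the entry enzyme of serine synthesis, at -1.45. Chromatin genes gave 5 lower and 2 higher of 26 (26.9%), with Suz12, a Polycomb subunit, at -1.52 ± 0.28 and Ezh2 at -0.93. The count of higher ones was 5 without NUP98-JARID1A day 5 replicate 1, 1 without its replicate 3 and 4 without its untreated day 5 replicate 3, and that of lower ones was 3 without day 5 replicate 3. The partner gene Kdm5a, which is the mouse JARID1A, had a difference of -0.07 (limma adjusted p = 0.827) and Nup98 of 0.13 (adjusted p = 0.59).

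Further lists held few calls, beside 23.1% of all features, and their counts above 0 changed by at most 3 members with single libraries left out. Respiratory chain genes gave 1 of 39, glycolysis genes 3 of 20 and primary granule genes 2 of 12. Markers of other cells gave 1 of 12 for erythroid genes, 1 of 21 for T and NK cell genes, 2 of 15 for basophil, mast cell and eosinophil genes, 1 of 8 for megakaryocyte genes and 0 of 6 for endothelial genes. The summed level of the T and NK cell genes was 1888 to 2488 untreated and 203 to 293 at day 5 in NUP98-JARID1A, and 1290 to 2541 and 194 to 301 in NUP98-DDX10. That of the endothelial genes was 2716 to 2952 and 648 to 709, and 3633 to 4248 and 1089 to 1319. These sums were lower at day 5 in every library of both fusions, and their part in the differences was not tested.

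The same contrast at day 3 called 453 features, or 3.57%. Since both days share the untreated libraries, values are only set side by side. Among the genes above, Foxf1 had a difference of -3.28 at day 3 and -6.32 at day 5, Bbx -1.91 and -2.16, Cttnbp2nl 2.86 and 3.16, and Ccl2 4.06 and 3.73. All 4 were called at both days. Lgmn had 2.62 and 4.35, Mcm7 -0.20 and -0.86, Fads2 -0.03 and -4.02, and H2-Aa 1.85 and 4.66. Of these last 4, Lgmn alone was called at day 3.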

How the data were processed

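The deposited values were the authors' normalized read counts per gene, a signal scaled between libraries, and per the submitters' processing notes the tools included STAR, featureCounts and DESeq2 on build GRCm38 (versions and use of strand not given in the sources used here). Their low values were whole multiples of 1 read within 0.01 for 100% of values, so whole reads could be recovered for depth and for count tests. Of 24462 features, the 12687 with at least 10 in at least 3 libraries were tested with limma 3.58.1 (R 4.3.3) on log2(value + 1), in a single fit of 10 group means over all 33 RNA libraries. Calls used a Benjamini-Hochberg adjusted p under 0.05 over all features tested.

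Named were the 12 largest differences in each direction with a plain gene symbol, a mean over 14 libraries above the median and no overlap. The 6 largest with opposite calls, under the same filters of symbol and mean, and list members were named as well. The gene lists, named genes and tests were chosen with earlier results of these data known. The cholesterol enzyme, MCM helicase and C1q chain subsets and the sterol and E box motifs were chosen after the values were seen. The script was tested on simulated data. Sequences came from RefSeq promoters of GRCm38.p6. Alternatives were edgeR 4.0.16 and DESeq2 1.42.0 on recovered reads, which called 2770 and 3121 features, other filters, pseudocounts, normalization, sample sets and single libraries left out. The libraries compared held 12510513 to 28903870 reads in genes. The precision of each value is given by the standard error of the fit. A few list members are counted but not reported by name here.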

Additional observations from a re-analysis of the deposited data

Results flagged for a closer look

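The effect of doxycycline at day 5 differed between NUP98-JARID1A and NUP98-DDX10 for 2926 features by the test of the difference itself. Genes called in both fusions with opposite signs were also filtered for a plain symbol and a mean above the median. The largest differences left, on the log2 scale, were 3.15 for Itgb5, 2.79 for Cd24a, 2.61 for Bmyc, 2.44 for Nav1, 2.31 for Dhrs3 and -2.22 for Hsd17b7.

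In 3 of 69 groups of 4 untreated libraries checked, a library lay far from the other 3 by Dixon's criterion, where chance gives about 1 in 20 groups. Serpinf1 was 1869 in replicate 3 of the untreated NUP98-JARID1A libraries titled day 5, against 480, 684 and 649 in the others. The untreated NUP98-JARID1A library titled day 3 had 4126 for Bbx, against 3674 to 3744 in the others, and 9450 for eGFP, the lowest of its group.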

How the results depend on the processing

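The difference was called for 2926 features, 1508 higher and 1418 lower. With the untreated libraries titled day 5 only it was called for 1907, 992 higher and 915 lower. Whether the replicate numbers pair the libraries is not stated, and 3 libraries of each kind are too few to settle it. For NUP98-JARID1A the correlation of same-numbered deviations lay between 0.096 and 0.344, and that of different-numbered ones between -0.274 and 0.171. For NUP98-DDX10 the ranges were -0.118 to -0.005 and -0.037 to 0.104. A fit with the replicate number as a block, on libraries titled day 5, called 2268 features, 1331 higher and 937 lower. No blocked value could be had for the gaps between the fusions. Leaving out 1 library at a time gave 2011 to 4302 features, 1067 to 2153 higher and 944 to 2149 lower, the lowest count of lower features without NUP98-JARID1A day 5 replicate 3 and the highest without its replicate 1. The count for NUP98-DDX10 alone, 1919, was 993 to 2277 with 1 library left out, and 2923 with the 30 fusion libraries in the fit. It was 993 without day 5 replicate 3, 1245 without replicate 2 and 1273 without the untreated library titled day 3. The other settings gave 2515 (quantile normalization) to 4085 (30 fusion libraries) features for the difference. The fits were also compared gene by gene for 188 features, which leave out some genes reported above, such as Idi1, Cyp51, C1qa and Nop58. Of the 188, 144 were called. Of these, 97 kept the call in every alternative in which they were tested, and none of the 144 changed sign. The replicate block ended the calls of 18, among them Cnn3, Ddx10 and Cmpk2. The gene list counts were recomputed as an addition chosen after seeing the data. The lowest and highest were 5 and 23 for interferon response genes, 3 and 17 for secondary granule genes, 2 and 18 for mitosis genes, 3 and 6 for MHC class II genes, 21 and 38 for DNA replication genes, 24 and 37 for nucleolar genes, 20 and 26 for monocyte and macrophage genes and 8 and 13 for the lower lipid genes. The causes were not tested.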
